A study of Mus musculus with 4 samples.

Results

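Mural cells wrap blood vessels from the outside: pericytes lie along capillaries, and smooth muscle cells form the contractile coat of larger vessels. Their barcodes in 4 single-cell libraries of mouse lung adenocarcinoma were chosen by their UMIs of 4 genes, where a UMI (unique molecular identifier) marks 1 captured RNA molecule. A barcode was taken where Notch3, Cspg4, Rgs5 and Pdgfrb summed to at least 3 UMIs, at least 1 of them from Notch3, Cspg4 or Rgs5. It also had to have 0 UMIs of Ptprc (leukocytes), Epcam (epithelium), Pecam1 (endothelium) and Pdgfra (fibroblasts), a minimum of 1000 UMIs and 500 genes, and no more than 20% mitochondrial UMIs. The rule found 51 members among 13493 barcodes that passed the cell filter, of 23576 deposited.

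The study asks what the transcription factors FoxA1 and FoxA2 do in lung adenocarcinoma. Each group is 1 library, and all mice were of a mixed 129/B6 background and carried KrasFSF-G12D, p53frt and Rosa-FSF-CreERT2. An adenovirus with the surfactant protein C promoter driving Flp recombinase started the tumours, so Cre activity is meant to be limited to cells in which that virus acted and to their progeny. KPF1F2 mice were labelled Foxa1flox and Foxa2flox, and KP mice Foxa1flox/+ and Foxa2flox/+. Both genotypes received tamoxifen at 120 mg/kg in 4 daily injections from week 10, and tumours were taken at week 12. Cells were loaded after (post-depletion) or before (pre-depletion) magnetic removal of CD45-positive leukocytes and CD31-positive endothelium. With 1 library a group there is no replicate error for a genotype, so no test and no p-value is given between genotypes. Intervals are 95% and cover counting error only.

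KPF1F2 post-depletion gave 11 members of 2566 passing barcodes, which is 0.429% (exact binomial interval 0.214 to 0.766%). KP post-depletion gave 24 of 3622, or 0.663% (0.425 to 0.984%). The pre-depletion libraries gave 8 of 3508 in KPF1F2 (0.228%) and 8 of 3797 in KP (0.211%). The post-depletion intervals overlap, and no test between the libraries was made. Members had medians of 14476 UMIs in KPF1F2 and 10672 in KP post-depletion, and 14373 in KPF1F2 and 9613 in KP pre-depletion. No member shared its barcode with a member of another library. In Xist, KPF1F2 members had 0 UMIs in both libraries, while KP members had 629 CPM post-depletion and 760 CPM pre-depletion. CPM, the usual depth-corrected scale, divides a gene's UMIs by all UMIs summed over the members of a library. Genotype and sex therefore cannot be told apart here.

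Notch3 is a receptor that mural cells need to mature, and Pdgfrb is the receptor through which endothelial PDGF recruits them. Cspg4 (NG2) is a surface proteoglycan of mural cells, and Rgs5 a regulator of G protein signalling used as a pericyte marker. Kcnj8, Abcc9, Higd1b and Cox4i2 are further markers of lung or brain pericytes in mouse. Acta2 (smooth muscle actin), Tagln (transgelin) and Myh11 (smooth muscle myosin) belong to the contractile apparatus, and Myh11 is the most restricted of the 3 to smooth muscle.

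The rule's own genes are given as a description only. Notch3 (chromosome 17, 32120820 to 32166852, minus strand, mm10) had 262 CPM in KPF1F2 and 92.2 CPM in KP post-depletion, and 157 CPM in KPF1F2 and 253 CPM in KP pre-depletion. Pdgfrb (chromosome 18, 61045150 to 61085061, plus strand) had 149 CPM in KPF1F2 and 214 CPM in KP post-depletion, and 149 and 600 CPM in KPF1F2 and KP pre-depletion. Cspg4 (chromosome 9, 56865033 to 56899870, plus strand) lay between 114 and 262 CPM in the 4 libraries. Rgs5 (chromosome 1, 169655501 to 169695813, plus strand) had 374 CPM in KPF1F2 and 366 CPM in KP post-depletion, and 173 CPM in KPF1F2 and 4619 CPM in KP pre-depletion. In KPF1F2 post-depletion 83.3% of the Rgs5 UMIs came from 1 barcode. At the threshold, 4 of the 51 members had a sum of exactly 3, of which 3 were in KP post-depletion, and 9 barcodes with a sum of 2 were left outside, 3 of them in KPF1F2 and 5 in KP post-depletion. A further 32 barcodes in KPF1F2 and 14 in KP post-depletion met the sum but had a Pdgfra UMI.

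The label held for some members and not for others. Acta2 had a UMI in 10 of 11 KPF1F2 and 18 of 24 KP members post-depletion, and in 8 of 8 and 7 of 8 pre-depletion. Myh11 had a UMI in 9 of 11 KPF1F2 and 7 of 24 KP members post-depletion, and in 6 of 8 KPF1F2 and 4 of 8 KP members pre-depletion. At least 2 of the 4 pericyte genes Kcnj8, Abcc9, Higd1b and Cox4i2 were present in 7 of 11 and 7 of 24 post-depletion, and in 2 of 8 and 4 of 8 pre-depletion. Myh11 and these 4 genes were all at 0 in 0 of 11 KPF1F2 and 11 of 24 KP members post-depletion, and in 1 of 8 KPF1F2 and 0 of 8 KP members pre-depletion. Those 11 KP barcodes had 0 to 32 Acta2 and 0 to 43 Tagln UMIs. Post-depletion, all 7 KPF1F2 members with at least 2 of the pericyte genes also had a Myh11 UMI, as did 4 of the 7 such KP members. Abcc9 and Kcnj8 were also present in fibroblast barcodes, defined below. Abcc9 had 92.2 and 58.6 CPM in KPF1F2 and KP fibroblast barcodes post-depletion, and 87.2 and 62.4 CPM in members. Kcnj8 had 52.4 and 109 CPM in those fibroblast barcodes, and 230 and 40.7 CPM in members.

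Other cell types were checked with fixed marker sets, in which Pecam1, Ptprc, Epcam and Pdgfra were held at 0 by the rule. In KP post-depletion, 3 members held 49 to 155 Krt8 and 113 to 432 Krt18 UMIs, keratins of simple epithelium, and all 3 also had UMIs of the engineered feature CRE-ERT2. They met the rule by 3 to 5 Cspg4 UMIs with at most 1 Notch3 UMI, had 0 Pdgfrb and Rgs5 UMIs, and were deep, at 32637 to 53367 UMIs. No other member had a CRE-ERT2, EGFP or UPRT_short UMI. A second set was rich in Col1a1, the chain of interstitial type I collagen: 12 of 24 KP members post-depletion had at least 25 Col1a1 UMIs and no Myh11, against 1 of 11 in KPF1F2. In KPF1F2 post-depletion, 1 barcode of 23806 UMIs held 513 of 685 Dcn UMIs and 46 of 48 Lum UMIs, proteoglycans of fibroblasts. Among 7 endothelial markers, Cdh5, Cldn5 and Egfl7 were at 0 in all 4 libraries, as was Pecam1 by the rule. The set summed to 3 UMIs in each post-depletion library, and to 1 in KPF1F2 and 9 in KP pre-depletion. The leukocyte set of 7 markers summed to 106 CPM in KPF1F2 and 125 CPM in KP post-depletion. Pre-depletion it summed to 157 CPM in KPF1F2 and 456 CPM in KP. Of the 3 Schwann cell and 2 red cell markers none had a UMI. The epithelial set summed to 517 CPM in KPF1F2 and 4733 CPM in KP post-depletion. It includes Sftpc, which had a UMI in every post-depletion member and, after thinning to 2000 UMIs, in 12.7% of KPF1F2 and 67.7% of KP leukocytes pre-depletion, so a Sftpc UMI in a member was not read as expression.

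**Figure D1:**
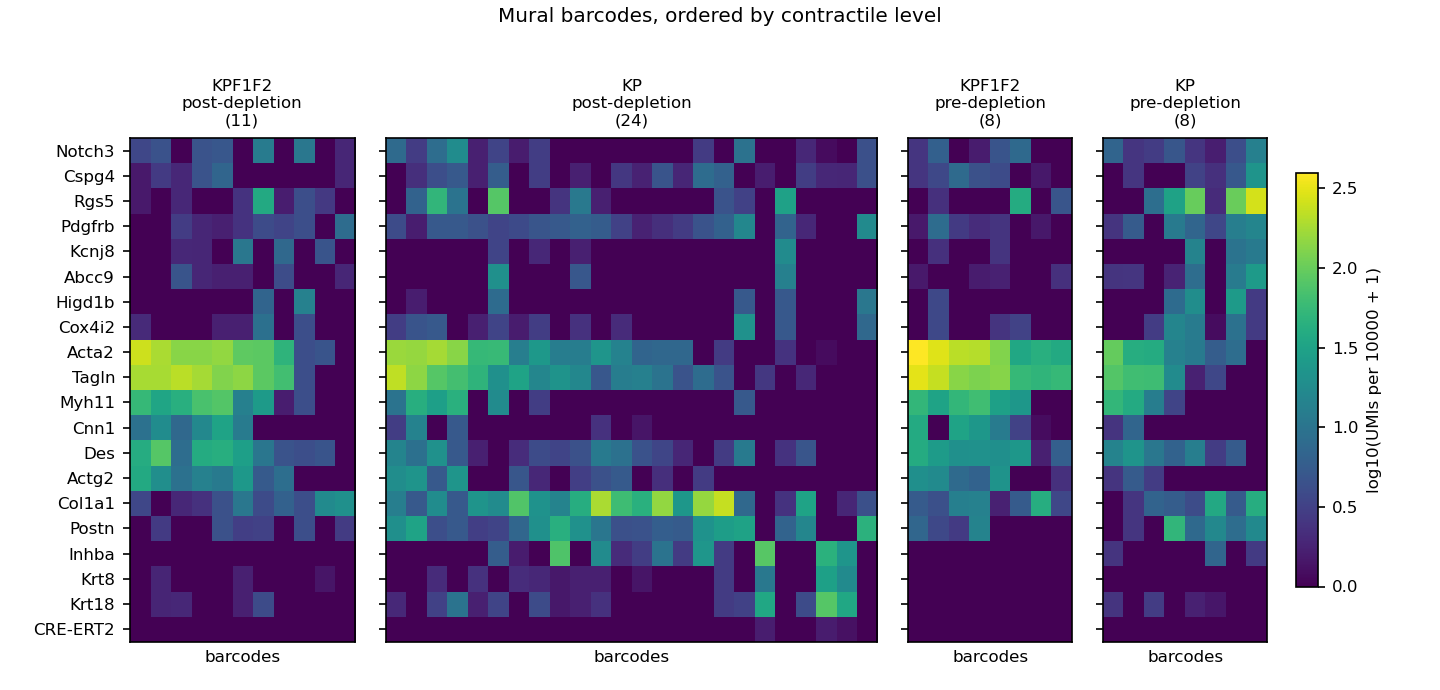
Each column is 1 mural barcode and each row 1 gene, coloured by log10 of UMIs per 10000 plus 1; columns run from high to low contractile level within each library. Most of the 11 KPF1F2 post-depletion barcodes are bright for Acta2, Tagln and Myh11, while 3 of the 24 KP post-depletion barcodes are bright for Krt8 and Krt18 and many carry Col1a1 or Inhba.

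Contractile genes were higher in KPF1F2 than in KP members. Per barcode, Acta2, Tagln and Myh11 together took a median of 246 of every 10000 UMIs in KPF1F2 members post-depletion (lowest 0, highest 488). In KP members post-depletion the median was 21.6 (lowest 0, highest 392). Pre-depletion the medians were 336 in KPF1F2 (91.2 to 771) and 21.6 in KP (0 to 226). The ranges overlap in both states. Post-depletion, 8 of 11 KPF1F2 members and 5 of 24 KP members lay above 100, and pre-depletion 6 of 8 KPF1F2 and 3 of 8 KP members did.

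**Figure D2:**
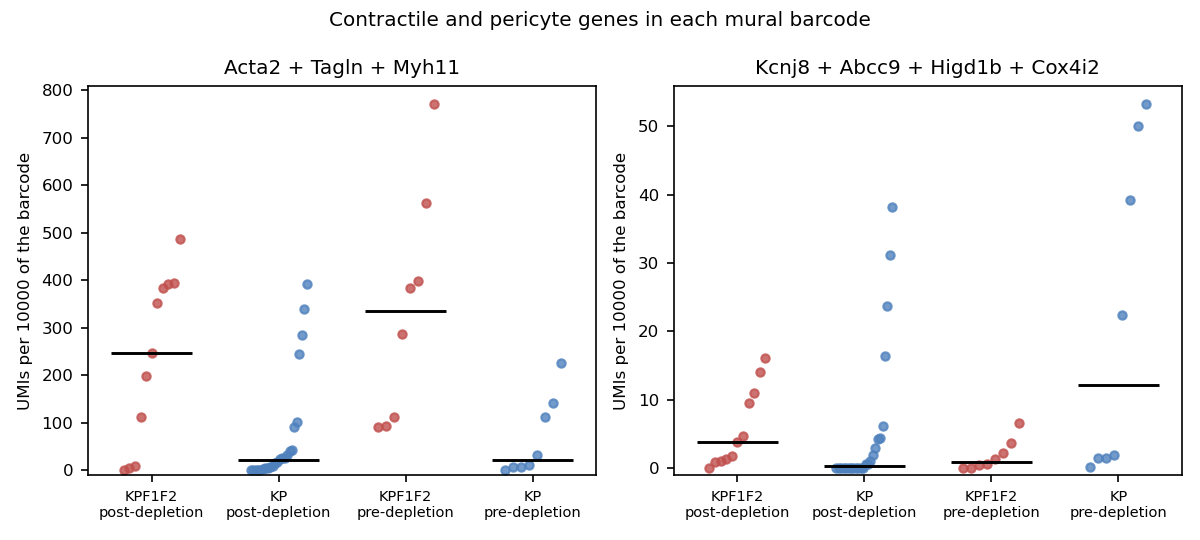
UMIs per 10000 of each mural barcode, for 3 contractile genes (left) and 4 pericyte genes (right); points are barcodes, bars are medians. The contractile medians are 246 in KPF1F2 and 21.6 in KP post-depletion, and the 3 highest pericyte values are all in KP pre-depletion.

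As sums over members, Acta2 (chromosome 19, 34241090 to 34255590, minus strand) had 10540 CPM in KPF1F2 and 2376 CPM in KP post-depletion, a log2 fold of 2.15 (interval 2.03 to 2.27). Tagln (chromosome 9, 45929619 to 45936058, minus strand) had 11130 and 2289 CPM in KPF1F2 and KP, a log2 fold of 2.28 (2.16 to 2.40). Myh11 (chromosome 16, 14194535 to 14291372, minus strand) had 3182 CPM in KPF1F2 and 334 CPM in KP, a log2 fold of 3.25 (2.97 to 3.55). Each log2 fold sets KPF1F2 against KP after adding 1 CPM to both sums. The pre-depletion libraries differed the same way, with 16690 and 1520 CPM of Acta2, 13470 and 1351 CPM of Tagln, and 2648 and 583 CPM of Myh11 in KPF1F2 and KP. Single barcodes held 28.7% of the Acta2 UMIs in KPF1F2 and 28.1% in KP post-depletion.

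Over all genes, 3195 reached a mean of 50 CPM over both post-depletion sums. Of these, KPF1F2 was 2-fold or more higher in 426 (13.3%) and 2-fold or more lower in 602 (18.8%), with a median log2 fold of -0.15. Of the 28 listed contractile genes, 24 were compared, and 22 of the 24 were at least 2-fold higher in KPF1F2 and 0 lower, with a median log2 fold of 2.38. The highest were Synpo2 (479.5 and 27.1 CPM in KPF1F2 and KP, log2 fold 4.10), an actin-binding protein, and Cnn1, calponin (865.5 and 73.2 CPM, 3.55). Itga8, an integrin chain of smooth muscle, had 324 CPM in KPF1F2 and 27.1 CPM in KP (3.53). Myocd, the coactivator through which serum response factor drives smooth muscle genes, had only 16 UMIs in KPF1F2 and 3 in KP (3.46, interval 1.81 to 6.04). Srf itself did not reach a mean of 50 CPM, at 24.9 CPM in KPF1F2 and 38.0 CPM in KP, and nor did the channel subunit Kcnmb1, at 68.5 and 21.7 CPM in KPF1F2 and KP.

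The remaining called contractile genes had log2 folds from 1.20 to 3.45. Those of the filament and its anchors were Lmod1 (3.45), Des (2.96), Actg2 (2.38), Tpm2 (2.23), Flna (1.57), Smtn (1.49) and Tpm1 (1.20). Those of myosin and its regulation were Myl9 (3.06), Ppp1r14a (2.47), Mylk (2.38), Ppp1r12a (2.34), Myl6 (1.83) and Rock1 (1.75). Mustn1 (2.76) and the amine oxidase Aoc3 (2.68) completed the 22. Cald1, caldesmon, had 2565 CPM in KPF1F2 and 2482 CPM in KP (0.05), and Calm2 had 841 and 602 CPM in KPF1F2 and KP (0.48), so neither reached 2-fold.

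The contractile result was set against the odd members. Without the 3 keratin-rich barcodes the contractile median was 1.73, with 1.49 for Acta2 and 2.59 for Myh11, and with members required to have a Notch3 or Rgs5 UMI, which leaves 11 in KPF1F2 and 18 in KP, it was 1.79. Without the barcodes of 25 or more Col1a1 UMIs, which leaves 10 in KPF1F2 and 12 in KP, it was 2.20, with 1.93 for Acta2 and 2.62 for Myh11. These 3 restrictions were chosen after the data were seen, and the first removes the same barcodes as leaving out those with an engineered-feature UMI. A further check, also chosen after the data were seen, left out for each gene the 1 barcode with most of its UMIs on the higher side. Of the 22 contractile genes, 1 fell below 2-fold without the keratin-rich barcodes (Smtn, 0.98) and 1 without its top barcode (Tpm1, 0.95). Both checks are given for the other lists as the number of called genes that fell below 2-fold. With so few barcodes, a shift in the mix of mural cell kinds, members that are not mural cells and a change within a kind cannot be told apart.

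The promoter windows of 2 contractile genes are shown because serum response factor acts through the CArG box, to which it binds. The sequences are RefSeq's, on GRCm38.p6, from 250 bases before to 50 bases after the start, and capitals mark CArG boxes in which at most 1 of the 6 central bases is not A or T. The Acta2 window is chr19:34255324-34255623 on the minus strand and the Myl9 window chr2:156775214-156775513 on the plus strand.
Acta2: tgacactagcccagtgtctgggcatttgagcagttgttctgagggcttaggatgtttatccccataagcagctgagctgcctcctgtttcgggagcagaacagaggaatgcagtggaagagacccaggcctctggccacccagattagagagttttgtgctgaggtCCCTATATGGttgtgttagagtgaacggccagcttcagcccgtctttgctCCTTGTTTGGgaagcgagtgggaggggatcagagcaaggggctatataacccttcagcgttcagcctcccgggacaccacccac
Myl9: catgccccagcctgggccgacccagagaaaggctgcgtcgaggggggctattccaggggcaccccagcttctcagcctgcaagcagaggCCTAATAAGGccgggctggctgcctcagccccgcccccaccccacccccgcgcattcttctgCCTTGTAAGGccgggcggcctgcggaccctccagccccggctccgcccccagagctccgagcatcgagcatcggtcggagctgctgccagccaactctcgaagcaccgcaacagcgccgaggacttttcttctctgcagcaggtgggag
The Acta2 boxes begin 84 and 34 bases before the annotated start, and those of Myl9 161 and 99 bases before it. Of 20 contractile genes with a window, 3 held such a box, the third being Srf, against 2702 of 27025 windows of all genes (10.0%). With no mismatch allowed, 2 of 20 held one, against 1.57% of all. The motif reads the same on both strands, and a match says nothing of binding in these cells.

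The pericyte genes outside the rule had a smaller median fold than the contractile genes. Of 21 listed, 13 were compared, of which 11 had a positive log2 fold. In KPF1F2 post-depletion 5 were at least 2-fold higher and 2 lower, against 13.3% and 18.8% of all genes, with a median of 0.88. With each barcode given equal weight the median was -0.055. Kcnj8, a channel subunit of mural cells, had 230 CPM in KPF1F2 and 40.7 CPM in KP (2.47). It rested on 37 UMIs in 5 barcodes of KPF1F2 and 15 UMIs in 4 barcodes of KP. In KPF1F2, 3 barcodes with 0 Notch3 UMIs held 9, 11 and 14 of the 37, and had 513, 156 and 11 Dcn UMIs. In KP, 1 barcode, also with 0 Notch3 UMIs, held 12 of the 15. The log2 fold of Kcnj8 was -1.79 under a stricter rule of at least 5 UMIs of the 4 genes and 2 of Notch3, Cspg4 and Rgs5. That rule leaves 7 members in KPF1F2 and 16 in KP. Higd1b had 12 UMIs in each library, 74.7 CPM in KPF1F2 and 32.6 CPM in KP (1.17, interval -0.08 to 2.48). The other 3 higher genes were Rgs4 (1.95), the adhesion molecule Mcam (1.50) and Gucy1a3, a subunit of the nitric oxide receptor (1.17). The 2 lower genes were Ano1, a chloride channel (-1.08), and Ndufa4l2, a mitochondrial protein induced by hypoxia (-1.03). The keratin-rich barcodes held 44 of the 49 KP Ano1 UMIs, and without them the log2 fold of Ano1 was 1.50. Of the 7 called genes, 4 fell below 2-fold or changed sign without the keratin-rich barcodes, namely Ano1, Mcam (0.85), Higd1b (0.53) and Gucy1a3 (0.51). Without the top barcode 4 did, namely Ano1 (-0.45), Ndufa4l2 (-0.69), Gucy1a3 (0.63) and Higd1b (-0.25).

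Within 2-fold were Abcc9 (87.2 and 62.4 CPM in KPF1F2 and KP, 0.48), the partner of Kcnj8, and Cox4i2 (99.6 and 94.9 CPM, 0.07). The same held for Ebf1 (0.88), Gucy1b3 (0.95), the connexin Gja4 (0.69) and Pde5a, which degrades cyclic GMP (0.04).

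Pre-depletion, the pericyte genes were high in KP. Of its 8 members, 3 had 130, 151 and 219 Rgs5 UMIs and no Myh11, and these held 39.2 to 53.2 UMIs per 10000 of Kcnj8, Abcc9, Higd1b and Cox4i2 together. The highest of the 8 KPF1F2 members pre-depletion held 6.57. As sums, Kcnj8 had 31.4 CPM in KPF1F2 and 363 CPM in KP, and Higd1b had 31.4 CPM in KPF1F2 and 743 CPM in KP. The direction is opposite to that post-depletion for both genes, and the 3 Rgs5-rich barcodes held all 43 Kcnj8 UMIs and 1, 54 and 24 of the 88 Higd1b UMIs of KP. With 8 members a library, folds over all genes were not counted pre-depletion. Of the 8 KP members, 2 were among the library's highest doublet scores, a set of fixed size and not barcodes called as doublets.

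**Figure D3:**
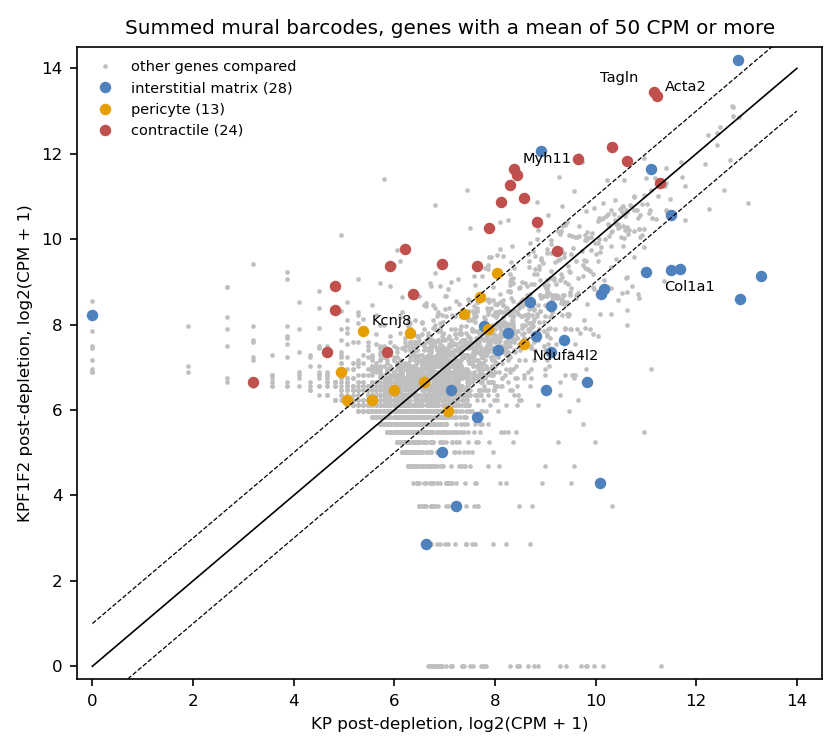
Each point is 1 of 3195 genes, placed by log2(CPM + 1) in the summed KP members (x axis) and the summed KPF1F2 members (y axis) post-depletion; the solid line marks equal levels and the dashed lines 2-fold. Of 24 contractile genes 22 lie above the upper dashed line, and 17 of 28 interstitial matrix genes lie below the lower one.

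Among genes of vessel tone, 8 were compared, with a median log2 fold of 1.90. In KPF1F2 post-depletion 6 were at least 2-fold higher and 1 lower, against 13.3% and 18.8% of all genes compared. Mrvi1, a substrate of the cyclic GMP kinase, had 187 CPM in KPF1F2 and 13.6 CPM in KP (3.69). Rgs2, which limits signalling of vasoconstrictor receptors, had 672.5 and 62.4 CPM in KPF1F2 and KP (3.41). The calcium channel Cacna1c (2.35) and the calcium release channel Itpr1 (2.32) were also higher. Prkg2, a cyclic GMP kinase, was lower, with 1 UMI in KPF1F2 and 39 UMIs in KP (-3.89, interval -9.43 to -1.52). Of the 7 called genes, Pde3a and the endothelin receptor gene Ednra fell below 2-fold without the keratin-rich barcodes (0.63 and 0.82), and Pde3a also without its top barcode (0.87).

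Interstitial matrix genes ran the other way. Of 28 compared, 3 were at least 2-fold higher and 17 lower in KPF1F2 post-depletion, against 13.3% and 18.8% of all genes. Their median log2 fold was -1.57. Fn1, fibronectin, had 386 CPM in KPF1F2 and 7454 CPM in KP (-4.27), and Timp1, an inhibitor of matrix proteases, 560 and 9996 CPM in KPF1F2 and KP (-4.15). The keratin-rich barcodes held 85.4% of the KP Timp1 UMIs, 48.2% in 1 of them, and without the 3 the log2 fold was -2.04. Fbln2, fibulin, had 18.7 CPM in KPF1F2 and 1085 CPM in KP (-5.79, interval -8.14 to -4.30). Without the keratin-rich barcodes, which held 67.0% of its UMIs, KP had 565 CPM of Fbln2 (-4.85). Fmod had 1 UMI in KPF1F2 and 36 in KP (-3.77, interval -9.31 to -1.40). Col1a1 had 635 CPM in KPF1F2 and 3296 CPM in KP (-2.37). The 3 higher genes were Lum, Dcn (4265 and 483 CPM in KPF1F2 and KP, 3.14) and Mgp, matrix Gla protein (18840 and 7324 CPM, 1.36). In KPF1F2 74.9% of Dcn and 95.8% of Lum UMIs came from the same barcode, and without it the log2 fold of Dcn was 1.38. For Mgp 1 barcode held 1520 of 3025 KPF1F2 UMIs. Without it KPF1F2 had 10060 CPM of Mgp, a log2 fold of 0.46, and without the keratin-rich KP barcodes the fold was 0.70, so the call was lost both ways. Of the 20 called genes, 2 fell below 2-fold without the keratin-rich barcodes and 3 without the top barcode, Mgp among both. Without the barcodes of 25 or more Col1a1 UMIs the list's median was -0.09, and the part of that set of members in the difference was not tested further. That restriction uses a gene of the list.

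Of 15 basement membrane genes, 2 were at least 2-fold higher and 4 lower, with a median log2 fold of -0.52. Over all genes compared the shares were 13.3% higher and 18.8% lower, so the higher count was near that share. Sparcl1, an adhesion-modulating matrix protein, had 3574 CPM in KPF1F2 and 852 CPM in KP (2.07), and the collagen chain Col4a5 112 and 16.3 CPM (2.71). Its relative Sparc had 2279 CPM in KPF1F2 and 5976 CPM in KP (-1.39). Col15a1 (-2.11), Nid1 (-1.31) and Lamb1 (-1.22) were the other 3 lower genes. None of these 6 fell below 2-fold without the keratin-rich barcodes or without its top barcode.

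Growth factor and Notch genes were few. The shares over all genes compared, 13.3% higher and 18.8% lower, apply to each list here. Of 10 PDGF, angiopoietin and VEGF genes, 3 were at least 2-fold higher and 3 lower (median -0.43). Vegfa, the main endothelial growth factor, had 18.7 CPM in KPF1F2 and 485.5 CPM in KP (-4.63, interval -6.99 to -3.13), with UMIs in 3 of 11 KPF1F2 and 16 of 24 KP members. Pdgfa (-1.72) and the VEGF co-receptor Nrp2 (-1.59) were lower, while Vegfb (2.14) and the Tie2 ligands Angpt2 (1.41) and Angpt1 (1.26) were higher. Both angiopoietins fell below 2-fold without the keratin-rich barcodes (0.77 and 0.61) and without the top barcode (0.89 and 0.61). Those 3 barcodes held 41.9% of the KP Vegfa and 55.1% of the KP Pdgfa UMIs, and without them the log2 folds were -4.50 and -1.22. Of 4 Notch pathway genes (median -0.39), the target Hes1 was higher (1.23) and the ligand Jag1 lower, with 24.9 CPM in KPF1F2 and 271 CPM in KP (-3.39). Hes1 fell below 2-fold without its top barcode (0.84), and Jag1, with 64.0% of its KP UMIs in keratin-rich barcodes, was at -2.58 without them. Of 23 TGF-beta and BMP genes, 3 were higher and 8 lower (median -0.31). The ligand Bmp5 had 131 and 19.0 CPM in KPF1F2 and KP (2.72). Tgfb1 (-2.94) and the BMP targets Id1 (-2.84) and Id2 (-1.76) were lower. Keratin-rich barcodes held 73.3% of the KP Tgfb1, 52.0% of the Id1 and 71.8% of the Id2 UMIs, and without them the log2 folds were -1.70, -2.44 and -0.60. Of the 11 called genes, Id2 and the BMP antagonist Grem1 fell below 2-fold under each check.

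Of 12 chemokine and inflammation genes, 7 were at least 2-fold higher and 2 lower (median 1.38), against 13.3% and 18.8% of all genes compared. Il33, an alarmin, had 249 CPM in KPF1F2 and 13.6 CPM in KP (4.10), but 38 of the 40 KPF1F2 UMIs were in the Dcn-rich barcode, as were 86.3% of those of Lcn2 (3.37). Cxcl1 (3.38) and Cxcl12 (2.99) were higher as well, and 45.2% and 67.5% of their UMIs came from that barcode. Ccl2 was lower (-2.85, interval -5.24 to -1.29), with 43 of 52 KP UMIs in 1 keratin-rich barcode, and Cxcl14 was lower too (-2.22). Without the top barcode 6 of the 9 called genes fell below 2-fold or changed sign, among them Il33 (0.10), Lcn2 (0.76) and Ccl2 (-0.59), while Cxcl1 (2.75) and Cxcl12 (1.60) stayed above it. Without the keratin-rich barcodes 2 of the 9 fell below 2-fold. Of 11 transcription factors of lung mesenchyme, 6 were higher and 2 lower (median 1.02), with Zeb1 (1.48), Mef2c (1.46), Foxs1 (1.43) and Zeb2 (1.43) leading and Hoxa5 (-2.83, interval -6.03 to -0.97) and Klf2 (-1.09) lower. Of these 8 called genes, 5 fell below 2-fold without the keratin-rich barcodes, Mef2c, Foxs1 and Zeb2 among them (0.81, 0.79 and 0.82), and 5 without the top barcode, among them Mef2c (0.61), Foxs1 (0.76) and Klf2 (-0.81). Of 19 immediate-early and heat shock genes, 5 were higher and 1 lower (median 0.35). The chaperone gene Hspa1a had 1781 CPM in KPF1F2 and 111 CPM in KP (3.99), and Hspa1b 1102 and 29.8 CPM (5.16). Nr4a1 was also higher (1.77) and Ier3 lower (-1.86). Without the keratin-rich barcodes Ier3 (-0.61) and Zfp36 (0.86) fell below 2-fold, and without the top barcode none of the 6 called genes did. Such genes respond to tissue dissociation, and the part of handling in this difference was not tested.

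In 3 lists no gene was at least 2-fold higher, where 13.3% of all genes compared were higher and 18.8% lower. Of 10 hypoxia and glycolysis genes 3 were lower (median -0.81), namely Gapdh (-1.15), Pkm (-1.13) and the prolyl hydroxylase P4ha1 (-1.03). Without the keratin-rich barcodes Gapdh and Pkm were at -0.37 and -0.39, and without the top barcode all 3 were within 2-fold (-0.86, -0.81 and -0.73). Of 8 interferon and MHC class I genes (median 0.41) 1 was lower, Ly6e (-2.77, interval -5.16 to -1.20), while Ifitm2 (0.97) and Ifitm3 (0.72) lay within 2-fold. Of 3 proliferation genes (median -1.51) 2 were lower, Stmn1 (-3.29, interval -6.47 to -1.46) and Hmgb2 (-1.51), the second of which was at -0.18 without its top barcode.

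Ranked by the counting interval's bound nearest to no difference, 10 genes led on each side post-depletion. Actc1, cardiac actin, had 2740 CPM in KPF1F2 and 54.3 CPM in KP (5.63), in 4 KPF1F2 members of high contractile level and 2 KP members, and KPF1F2 had 1334 CPM without its top barcode. Pi15, a secreted protein, had 75 UMIs in 8 KPF1F2 members and 2 UMIs in 1 KP member (6.19, interval 4.53 to 9.50). Pdlim3, an actin-associated protein of muscle, had 28 UMIs in 7 KPF1F2 members and 0 in KP, at least 21.4-fold higher when KP is set to the limit of 3 UMIs over its summed members. By the same limit Npy1r, a receptor of neuropeptide Y, was at least 28.3-fold higher, on 37 UMIs in 4 members. Serpina3n, a protease inhibitor, was at least 45.9-fold higher, on 60 UMIs in 3 members.

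Enpp2, autotaxin, had 110 UMIs in 6 KPF1F2 members and 3 UMIs in KP (6.23, interval 4.81 to 8.70). The Dcn-rich barcode held 58 of the 110, and without it KPF1F2 had 380 CPM of Enpp2 and a log2 fold of 5.38. Hspa1b, of the heat shock list, was also among the 10. Lum (at least 36.7-fold higher) and the Wnt antagonist Sfrp1 (5.38) rested on the Dcn-rich barcode for 95.8% and 85.6% of their UMIs, and Sfrp1 was at 2.83 without it. Hhip, the hedgehog-interacting protein, was at least 22.2-fold higher, with UMIs in 2 KPF1F2 members and 0 in 24 KP members. The Dcn-rich barcode held 13 of its UMIs and 1 other member 16. Pre-depletion Hhip had 34 UMIs in 1 KPF1F2 member and 0 UMIs in KP. That member also had 6 Dcn and 8 Lum UMIs and 0 Notch3 UMIs.

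The 10 leading lower genes were led by Inhba, a subunit of activin. It had 0 UMIs in 11 KPF1F2 members and 931 UMIs in 13 of 24 KP members, at least 135-fold lower by the limit of 3 UMIs. Of these 13 KP members 12 had no Myh11, and none had a contractile level above 100 per 10000. The 3 keratin-rich barcodes held 71, 240 and 407 of the 931, and without them KP had 912 CPM of Inhba. Outside them 1 barcode held 156 Inhba UMIs and no other more than 25. Pla2g7 (at least 23.4-fold lower) and Cdkn2a (at least 44.6-fold) came from 10 and 16 KP members, and Fbln2 from 13. The keratin-rich barcodes held 55.9% of the Pla2g7, 58.0% of the Cdkn2a and 67.0% of the Fbln2 UMIs of KP. Without them KP had 304 CPM of Pla2g7 and 552.5 CPM of Cdkn2a, against 0 UMIs in KPF1F2. Of the KP Cdkn2a UMIs outside the keratin-rich barcodes, 1 barcode held 77 and no other more than 20.

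The keratin-rich barcodes held every Apob and Qrfp UMI, and these genes were lower by no less than 53.4-fold and 48.2-fold in KPF1F2, by the same limit. Mcpt1 (at least 48.5-fold) and Slpi (at least 36.6-fold) had 87.1% and 86.9% of their UMIs in 1 keratin-rich barcode, and 98.5% and 98.8% in the 3 together. Prg4, lubricin, was at least 24.8-fold lower, from 4 KP members. Pre-depletion Inhba had 0 CPM in KPF1F2 and 253 CPM in KP, and Apob, Qrfp and Mcpt1 had 0 CPM in both libraries. In KP pre-depletion 1 barcode of 46824 UMIs held 28 of the 30 Inhba UMIs. It had 168 Col1a1 and 0 Myh11 UMIs.

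In fibroblast barcodes 8 of the 16 contractile genes compared were at least 2-fold lower in KPF1F2. Fibroblast barcodes were those with at least 1 Pdgfra UMI, at least 3 UMIs of Pdgfra and Dcn, and 0 UMIs of Notch3, Cspg4, Rgs5, Ptprc, Epcam and Pecam1. There were 243 in KPF1F2 and 42 in KP post-depletion. In them Acta2 had 92.5 CPM in KPF1F2 and 1047 CPM in KP, Tagln 103 and 1398 CPM, and Myh11 0.234 and 10.9 CPM. None of the 16 was at least 2-fold higher in KPF1F2 (median log2 fold -1.04), where 5.6% of 3069 genes were higher and 5.77% lower. The difference between classes was not tested, as each rests on 1 library a genotype. Pre-depletion, fibroblast Acta2 had 57.7 CPM in 59 KPF1F2 barcodes and 1710 CPM in 11 KP barcodes. So in KP the mural sum of 8 members (1520 CPM) did not exceed the fibroblast sum.

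**Figure D4:**
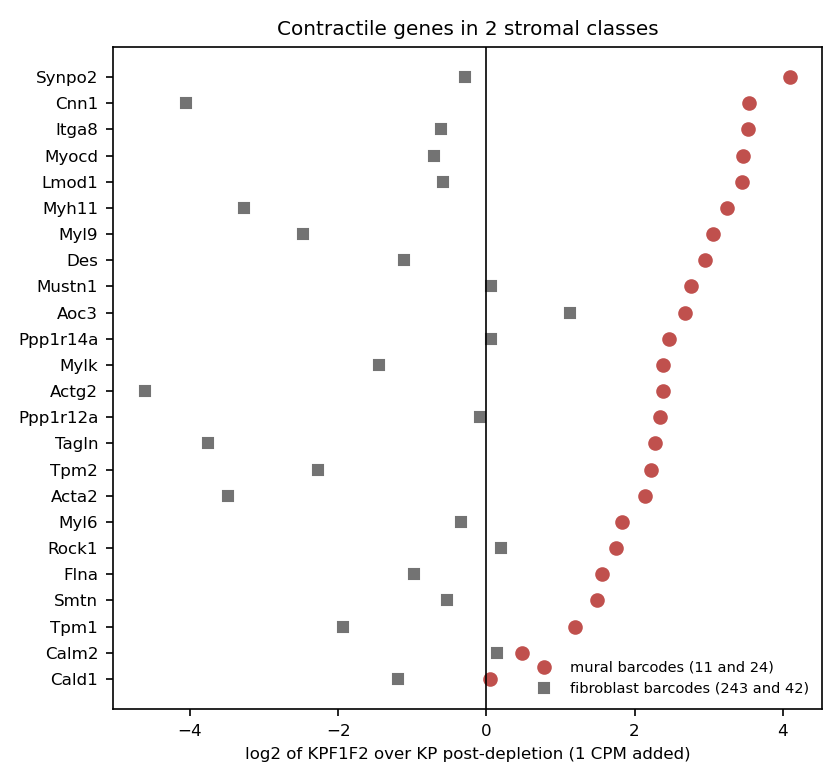
Log2 of KPF1F2 over KP post-depletion for the 24 contractile genes compared in mural barcodes (circles) and for the same genes in fibroblast barcodes (squares). All 24 circles lie at or right of 0, from 0.05 to 4.10, while the squares of Acta2, Tagln, Myh11, Cnn1 and Actg2 lie between -4.61 and -3.27. The squares of Aoc3 (1.13), Rock1 (0.21), Calm2 (0.14), Mustn1 (0.07) and Ppp1r14a (0.07) lie right of 0, and those of Myh11, Cnn1 and Actg2 rest on 1, 1 and 2 KPF1F2 fibroblast UMIs.

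Mural members were also compared with fibroblast barcodes of the same library, the comparison in which libraries serve as replicates. Libraries of a genotype may share mice, so they may not be independent replicates. UMIs were summed per library and class and tested with edgeR's quasi-likelihood test, with the library as a block and p-values adjusted over all genes. Only the post-depletion libraries had at least 10 barcodes of both classes. With those 2, no gene of 5778 passed an adjusted p of 0.05 and 2-fold, 0 higher (0.0%) and 0 lower (0.0%), while 592 had an unadjusted p under 0.05. DESeq2 on the same sums called 42 higher and 99 lower. A fit of all 4 libraries, added after the data were seen, tested 4026 genes and called 63 (1.56%) higher and 184 (4.57%) lower in mural members. It includes sums of 8 to 11 barcodes and pools 2 genotypes and 2 depletion states. Its standard errors and adjusted p-values treat the 4 libraries as independent. Each standard error (SE) was derived as the absolute log2 fold over the square root of the test's F value. Of these 247, 243 had an unadjusted p under 0.05 in the same direction in the first fit, whose libraries are part of the second. With 1 library left out, 145 of the 247 kept an adjusted p under 0.05 in the same direction without KPF1F2 post-depletion, 146 without KP post-depletion, 114 without KPF1F2 pre-depletion and 181 without KP pre-depletion. Without KPF1F2 pre-depletion the fit called 33 genes higher and 94 lower.

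In the fit of 4 libraries, 6 of 11 pericyte genes tested were higher in mural members and 1 lower. Gucy1b3, the other subunit of the nitric oxide receptor, had 399, 206, 134 and 372 CPM in mural members of KPF1F2 post-depletion, KP post-depletion, KPF1F2 pre-depletion and KP pre-depletion. In fibroblast barcodes it had 12.6, 17.4, 5.24 and 23.1 CPM in the same order, a log2 fold of 4.34 ± 0.35 (SE, edgeR adjusted p = 0.000954, higher in 4 of 4 libraries). Cox4i2 (5.71 ± 0.57, adjusted p = 0.00175), Gja4 (6.38 ± 0.47, adjusted p = 0.000954), Mcam (5.32 ± 1.09, adjusted p = 0.0293), Ndufa4l2 (3.59 ± 0.55, adjusted p = 0.00905) and Gucy1a3 (2.64 ± 0.44, adjusted p = 0.0131) were the others. Steap4, listed as a pericyte gene, was lower in mural members (-4.66 ± 0.71, adjusted p = 0.00905).

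Of 22 contractile genes tested, 2 passed, Lmod1 (6.30 ± 0.87, adjusted p = 0.00578) and Mustn1 (3.46 ± 0.56, adjusted p = 0.0117), and the list's median was 1.86 against -0.01 for all genes. Acta2 did not pass (3.93, adjusted p = 0.32), nor Tagln (3.28, adjusted p = 0.41), nor Myh11 (7.80, adjusted p = 0.057). Both Acta2 and Tagln were lower in the mural than in the fibroblast sum in KP pre-depletion. Actc1, outside the list, had 2740, 54.3, 479 and 144 CPM in mural members and 0 UMIs in all fibroblast barcodes (adjusted p = 0.00175).

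The other genes with the largest mural excess were chosen by a fixed rule of size, applied here to the fit added later. Ramp1, a partner of the receptor for the vasodilator CGRP, had 218, 372, 236 and 59.1 CPM in mural members and 6.79, 4.34, 2.10 and 0 CPM in fibroblast barcodes (5.67 ± 0.42, adjusted p = 0.000954). The keratin-rich barcodes held 127 of the 137 Ramp1 UMIs of KP post-depletion, which had 42.8 CPM without them, and in the fit without those barcodes Ramp1 was not tested. Nes, the intermediate filament nestin, had 255, 296, 126 and 236 CPM in mural members and 5.62, 15.2, 2.10 and 53.9 CPM in fibroblast barcodes (4.42 ± 0.59, adjusted p = 0.00488). Map3k7cl (5.96), Ttll7 (4.30) and Rtn4rl1 (3.98) followed. Of the KP post-depletion UMIs, keratin-rich barcodes held 22 of 109 for Nes, 9 of 20 for Ttll7 and 0 for Map3k7cl and Rtn4rl1. Among the fixed lists, the collagen chain Col18a1 (2.17), the integrin chain Itga1 (2.25), Pdgfa (3.11, with 113 of 205 UMIs of KP post-depletion in keratin-rich barcodes), the VEGF receptor Flt1 (7.04), the Notch target Heyl (1.96) and Pde3a (2.91) were higher too. Those barcodes also held 13 of 39 Flt1 and 8 of 115 Col18a1 UMIs of KP post-depletion, and 0 of Itga1, Heyl and Pde3a.

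The 10 genes with the largest mural deficit came from the same rule, and their fitted folds depend on few mural UMIs. Inmt, a methyltransferase of lung stroma, had 0, 2.71, 0 and 0 CPM in mural members and 991, 1090, 1501 and 1032 CPM in fibroblast barcodes (-9.74 ± 0.53, adjusted p = 0.000417). Efemp1 (-7.84), Dpep1 (-7.68), Abca8a (-7.11), Ly6a (-7.09) and Ly6c1 (-6.46) were lower in 4 of 4 libraries, as was Pi16, with 12.45, 0, 7.86 and 0 CPM in mural members and 1463, 1214, 964 and 169.5 CPM in fibroblast barcodes. Ccl11, C7 and Scara5 had 0 UMIs in every mural sum. The mesenchymal transcription factors Tcf21 (-3.62) and Meox2 (-5.50) were lower as well. Of 19 chemokine and inflammation genes, 5 were lower and 0 higher. Without the CRE-ERT2-positive barcodes 58 genes were higher and 168 lower, and 191 of the 247 genes still had an adjusted p under 0.05 in the same direction.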

How the data were processed

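Tumour cells were profiled with the 10x 3′ v3.1 kit, per the labels' protocols. The deposited values are UMI counts per gene and barcode from Cell Ranger 6.0.0, per the file headers, with mm10 as the build, per the submitters' processing notes. Each library is 1 sample with no replicate.

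The cell filter kept barcodes with 1000 or more UMIs, 500 or more genes and no more than 20% mitochondrial UMIs. Counts of members were summed per library and scaled to CPM. Genes with a mean of 50 CPM were compared between genotypes on a log2 scale after adding 1 CPM, and called at 2-fold. Intervals are 95% exact Poisson, binomial or conditional binomial. A side at 0 was set to 3 counts. Mural and fibroblast sums were tested with edgeR 4.0.16 (quasi-likelihood, library block, Benjamini-Hochberg adjustment) and DESeq2 1.42.0 as an alternative. Both computations were tested on simulated data. The doublet caller scrublet marked 1 of 3622 barcodes in KP post-depletion and 4 of 3797 in KP pre-depletion, and under 0.5% in every library. Likely doublets were therefore a fixed number of highest scores, 0.8% of cells per 1000 barcodes, which gave 247 and 181 in those libraries. They were left in and removed in an alternative. Of the members, 3 fell in that set of highest scores, 1 in KP post-depletion and 2 among the 8 in KP pre-depletion.

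Named genes were the rule's genes, all compared pericyte and contractile genes, up to 4 and 2 genes of each other list by direction, and 10 ranked genes each way, without gene models, ribosomal, mitochondrial or sex-linked genes and genes higher in non-mural barcodes. Members and lists were chosen with earlier results of these data known. Some genes are not reported here.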

Additional observations from a re-analysis of the deposited data

Results flagged for a closer look

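In 4 pericyte genes KPF1F2 members were higher than KP members post-depletion and lower pre-depletion, and the difference between the states was not tested. The log2 fold of KPF1F2 over KP was 2.47 post-depletion and -3.49 pre-depletion for Kcnj8, 1.95 and -1.15 for Rgs4, 1.17 and -4.52 for Higd1b, and 1.17 and -1.38 for Gucy1a3. Pre-depletion each library had 8 members.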

How the results depend on the processing

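With a minimum of 20, 200 or no CPM, 901, 97 and 2354 genes were at least 2-fold higher and 1253, 147 and 4266 lower in KPF1F2 post-depletion. Thinning to 2000 UMIs gave 925 higher genes, which moved the share of higher among called genes to 53.2%, against 41.4%. The contractile median was 1.68 with equal weight per barcode, 1.73 without barcodes with an engineered-feature UMI or without those of 10 or more Krt8 and Krt18 UMIs, and 1.79 with a Notch3 or Rgs5 UMI required. The pericyte median was -0.055 with equal weight, 0.26 without engineered-feature or keratin-rich barcodes, 0.24 without barcodes with a Dcn, Lum, Msln or Upk3b UMI, 0.12 thinned and 0.27 with a Notch3 or Rgs5 UMI required. Signs turned for Kcnj8 (-1.79 under the stricter rule, -1.99 without Dcn, Lum, Msln or Upk3b), Sfrp1 (-4.40 and -2.76 under the same settings), Ano1 (1.50 without engineered-feature or keratin-rich barcodes, 1.31 without Dcn, Lum, Msln or Upk3b), Notch3 (-0.46 thinned) and Higd1b (-0.25 without its top barcode). The cause was not tested. Of 1159 gene folds under alternatives 933 stayed within the counting interval of the reported value. That count includes settings that could not move a fold. The changed CPM minima only select which genes are compared. No post-depletion member had under 2289 UMIs, so a minimum of 2000 removed none. The engineered-feature and keratin settings remove the same barcodes and are both counted.

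Mural against fibroblast, edgeR called 196 genes higher and 351 lower with at least 1 UMI in 2 sums, 39 and 72 under the stricter rule, 21 and 39 with likely doublets left out, and 63 and 184 with all 4 libraries, while DESeq2 called 42 and 99. With all 4 libraries the counts were 34 and 130 without KPF1F2 post-depletion, 44 and 131 without KP post-depletion, 33 and 94 without KPF1F2 pre-depletion, 85 and 188 without KP pre-depletion, and 58 and 168 without engineered-feature barcodes. Without leukocyte and endothelial barcodes the mural share pre-depletion was 0.614% in KPF1F2 and 0.435% in KP. Pre-depletion folds over all genes and leave-one-out of the 2-library fit were not run, the second because no residual degrees of freedom remain. No paired analysis was possible because each group is 1 library and the labels give no replicate numbers.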
